A study of Homo sapiens with 6 samples.

Results

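The genes described here are the enzymes of glycolysis and the genes of the cellular response to low oxygen. They were read in HEK293, an established human cell line of embryonic kidney origin, after transfection with an siRNA against the chromatin protein BAHD1. The list holds 43 gene symbols, and its probe sets were those annotated with exactly one of these symbols. A 44th entry, INSIG1-excluded, is not a gene symbol and matched nothing. Of the 43 genes, 42 had at least 1 probe set of their own, out of 19775 genes named in this way on the whole array. CA9, a carbonic anhydrase induced by hypoxia, was not analysed here, because no probe set carries its name in the annotation used.

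The cells were grown in DMEM with 10% FCS and were transfected for 72 h with either a control siRNA or a BAHD1 siRNA, using a lipid reagent. Each group had 3 biological replicates, with 1 array per replicate. Both groups were of the same line and had been transfected, and no untransfected cells were compared. The values are array signals on a linear scale, and differences between groups are given on the log2(signal + 1) scale as BAHD1 siRNA minus control.

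Glycolysis splits glucose into pyruvate in the cytosol, and lactate dehydrogenase then turns pyruvate into lactate. When oxygen is low, hydroxylation of the hypoxia-inducible factor (HIF) alpha subunits slows, the subunits escape destruction through VHL, pair with ARNT and activate genes for glucose uptake, glycolysis and blood vessel growth. HEK293 cells, like most cultured lines, rely heavily on glycolysis even in air, and in such cells many of these genes are expressed without hypoxia.

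The 42 genes had 103 probe sets, of which 3 are GAPDH quality controls of the array and were kept out of the tests. Of the other 100, 89 passed the filter on dim signals (above 17.9, the median of all values, in at least 3 of the 6 arrays), and they covered 41 genes. EGLN2 alone lost its own probe set to the filter, at signals of 0.7 to 4.3. Only 1 of the 89, a probe set of EGLN3, passed the filter through the arrays of 1 group alone. Each gene is represented below by its brightest kept probe set unless another is named.

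The transcript of BAHD1 itself was lower on average but did not pass. The signals of its 1 probe set were 62.9, 55.7 and 46.7 in control arrays and 36.6, 46.8 and 41.2 in BAHD1 siRNA arrays. The groups overlapped by a narrow margin, and the mean level was 76.0% of control. The log2 difference of -0.40 ± 0.19 (SE, n = 3 per group) missed the threshold (limma, adjusted p = 0.251; exact two-sided permutation p = 0.2, where 3 against 3 cannot give less than 0.1). All differences below are between cells given the BAHD1 siRNA and cells given the control siRNA.

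Among the HEK293 markers, 8 of 9 passed the filter, while markers of leukocytes (0 of 5), endothelium (1 of 4), fibroblasts (1 of 5) and hepatocytes (1 of 4) mostly did not. The array medians ran from 15.9 to 19.5. Bacterial poly-A RNAs, which are added before labelling, read higher in the BAHD1 siRNA arrays in all 24 of their probe sets, at a median of 1.49 times control; the part of this shift in the results below was not tested.

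Of the 89 member probe sets, 3 passed the test at an adjusted p under 0.05, against 4.45% of all 27458 probe sets tested. That is 3.37% of the members, so the share was near the background. HK2 rose (1 of 89, against 2.17% of all probe sets called higher), and ADM and PKM fell (2 of 89, against 2.28% called lower). The fit behind these calls is limma with a variance prior that follows the signal. Under limma with one prior for all probe sets none of the 89 was called (smallest adjusted p = 0.173), nor was any probe set of the array. That fit gave 11 of the 89 an unadjusted p under 0.05 (12.4%), against 17.6% of all probe sets. In the fit used for the calls this count was 21 of the 89 (23.6%), against 20.9%. Lower with such a p were 12 of the 89, against 9.96% of all probe sets. Higher with such a p were 9 of the 89, against 11%. The 3 control arrays and the 3 BAHD1 siRNA arrays did not overlap in 18 of the 89 (20.2%), 8 higher and 10 lower with the BAHD1 siRNA, against 25.6% of all probe sets (13.4% higher and 12.2% lower). The 8 include the EGLN3 probe set that passed the filter through the BAHD1 siRNA arrays alone.

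By gene, 18 of the 41 were higher and 23 lower. The median log2 difference was -0.03, beside 0.02 for all 12529 genes with a probe set kept by the filter. Of those 12529 genes 54.4% were higher, and of the members 43.9%. The differences of single members ran from -0.47 (ADM) to 0.50 (HK2). With the array medians centred, the median over all probe sets kept moved from 0.01 to -0.13. The medians centred were those of all non-control probe sets, including dim ones that the filter left out. Centring lowered every difference by the same amount, for example HK2 from 0.50 to 0.36 and ADM from -0.47 to -0.61. Which level is the right one was not tested. The calls then were 192 higher and 1515 lower over the array, in place of 596 and 625. These are 0.699% and 5.52% of all probe sets, 6.22% together. Among the members they were 0 higher and 9 lower (10.1%). The 9 were 2 probe sets of ARNT and 1 each of ADM, P4HA1, STC2, PDK1, TPI1, PGAM1 and PKM.

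**Figure D1:**
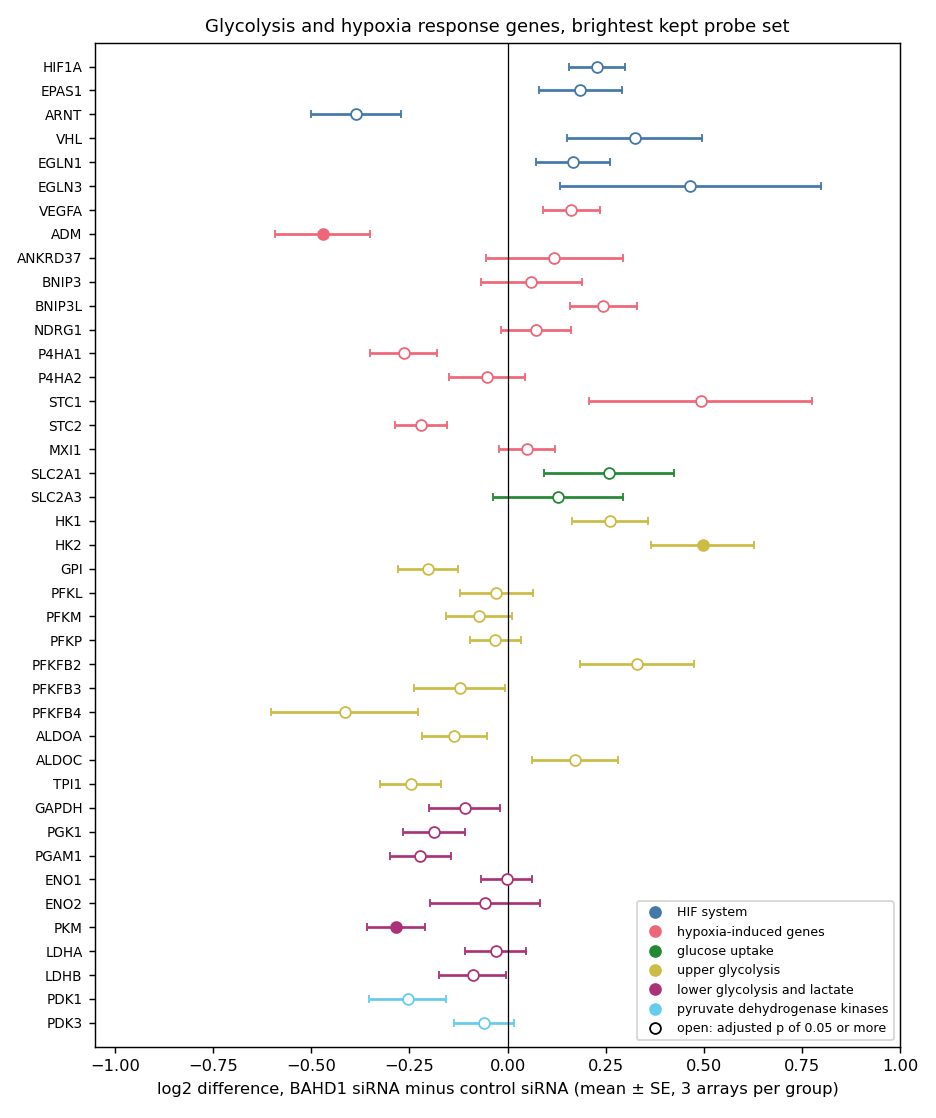
Log2 difference (BAHD1 siRNA minus control siRNA, horizontal axis) of 41 member genes by their brightest kept probe set, with the SE of the fit from 3 arrays per group. Colours give the role, and filled points passed an adjusted p of 0.05: HK2 at 0.50, ADM at -0.47 and PKM at -0.28.

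HK2 was the member with the largest rise. It encodes a hexokinase that traps glucose in the cell by phosphorylating it and that binds to mitochondria, and it is a known HIF target. Its signals were 182.4, 185.0 and 225.5 in control arrays and 247.8, 343.8 and 252.1 in BAHD1 siRNA arrays. Every BAHD1 siRNA value lay above every control value, and replicate 2 was the highest. The mean level was 1.41 times control (log2 difference 0.50 ± 0.13 (SE, n = 3 per group), adjusted p = 0.0488). The 2 other kept probe sets of HK2 were also higher, at 0.24 and 0.08, but did not pass.

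ADM fell. It encodes adrenomedullin, a vasodilator peptide that is strongly induced by hypoxia. Its 1 probe set read 150.9, 173.7 and 172.5 in control arrays and 133.1, 121.5 and 104.3 in BAHD1 siRNA arrays. All BAHD1 siRNA values lay below all control values, with replicate 3 the lowest. The mean level was 72.2% of control (log2 difference -0.47 ± 0.12 (SE, n = 3 per group), adjusted p = 0.0455).

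PKM, the pyruvate kinase gene that catalyses the last step of glycolysis, fell as well. The signals of its brighter probe set were 1430.1, 1383.7 and 1404.4 in control arrays and 1248.8, 1183.2 and 1042.5 in BAHD1 siRNA arrays. The control arrays lay close together, and all BAHD1 siRNA values were below them, at 82.2% of control on average. The log2 difference was -0.28 ± 0.07 (SE, n = 3 per group), with an adjusted p of 0.0468. The dimmer probe set of PKM was at -0.29 with overlapping groups.

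**Figure D2:**
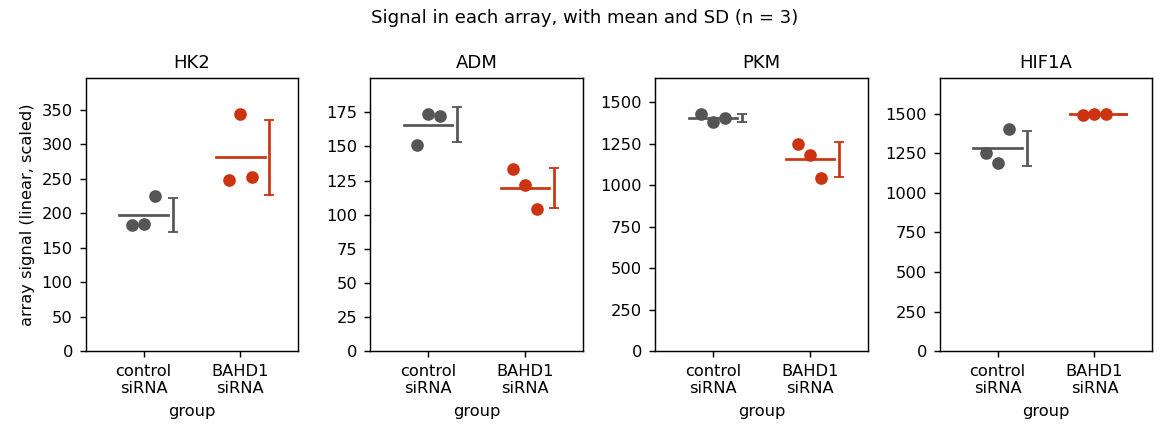
Array signal on a linear axis from 0 for HK2, ADM, PKM and HIF1A, with 1 point per array, a line at the mean and a bar of 1 SD (n = 3 per group). The groups do not overlap in any of the 4 genes: BAHD1 siRNA is above control for HK2 and HIF1A and below it for ADM and PKM.

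All 3 calls were close to the threshold and depended on single arrays and on the processing. None of the 3 passed when control replicate 1 or 2, or replicate 2 or 3 of BAHD1 siRNA, was left out. In that order the adjusted p values were 0.149, 0.141, 0.179 and 0.0854 for HK2. They were 0.0744, 0.136, 0.118 and 0.176 for ADM, and 0.128, 0.108, 0.12 and 0.192 for PKM. Without control replicate 3, HK2 passed (0.0343) and ADM (0.0949) and PKM (0.0696) did not, while without BAHD1 siRNA replicate 1 all 3 passed. With one prior the adjusted p values were 0.219 for HK2, 0.173 for ADM and 0.228 for PKM. With no filter on dim signals none of the 3 passed either, at 0.106, 0.103 and 0.0973. HK2 also missed the threshold with centred medians (log2 difference 0.36, adjusted p = 0.111), and HK2 (0.27, adjusted p = 0.188) and PKM (adjusted p = 0.218) as means over their probe sets. The directions of the 3 genes held under every setting run, with log2 differences from 0.34 to 0.60 for HK2, -0.55 to -0.38 for ADM and -0.34 to -0.21 for PKM when 1 array was left out.

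**Figure D3:**
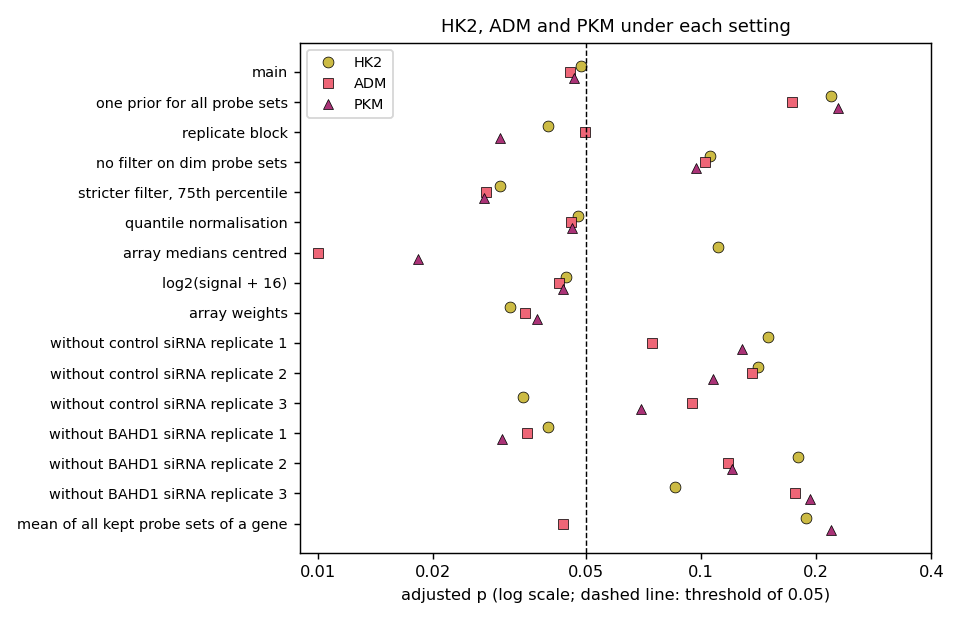
Adjusted p (log axis) of HK2, ADM and PKM under each way of processing the arrays, with the threshold of 0.05 as a dashed line. In the fit used for the calls (main, the top line) the 3 genes lie at 0.0488, 0.0455 and 0.0468, and with one prior for all probe sets they lie at 0.219, 0.173 and 0.228.

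The bases before the start of HK2 and ADM are shown because these called members carry the core of the hypoxia response element, the short motif that HIF binds. The motif was searched as ACGTG and GCGTG on both strands over 250 bases before the start. The palindrome CACGTG holds ACGTG on both strands and was counted as a match on each. Sequences are those of RefSeq (GRCh38.p14), 5′ to 3′ on the strand of the gene, with the matches in capitals. HK2 lies at chr2:74833877-74834126 on the plus strand and ADM at chr11:10304823-10305072 on the plus strand.
HK2: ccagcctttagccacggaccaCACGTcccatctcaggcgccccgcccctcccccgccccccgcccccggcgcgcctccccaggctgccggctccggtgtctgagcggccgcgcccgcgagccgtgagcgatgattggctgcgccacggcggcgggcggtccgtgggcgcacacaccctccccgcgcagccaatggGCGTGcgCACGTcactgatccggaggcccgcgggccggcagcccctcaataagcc
ADM: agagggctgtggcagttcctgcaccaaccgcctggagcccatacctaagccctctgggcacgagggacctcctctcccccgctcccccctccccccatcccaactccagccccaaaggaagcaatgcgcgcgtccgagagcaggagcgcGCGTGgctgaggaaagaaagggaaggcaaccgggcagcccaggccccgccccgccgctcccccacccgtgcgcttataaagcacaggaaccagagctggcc

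HK2 had 3 matches, which begin 229, 55 and 48 bases before the start, and ADM had 1, at 101 bases. The window of PKM held none of these letters. Of the 36 listed genes found in the promoter table (CA9 among them), 23 had at least 1 match (63.9%), against 43.2% of all 35116 windows of the same length in that table. Those windows were not limited to genes of the array, and the difference between the shares was not tested. BNIP3 held the most, with 6, and ALDOC and LDHA held 5 each. A match is a description of the sequence and does not show that HIF binds there. HK2 and ADM, both with matches, went in opposite directions.

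The genes of the HIF system itself did not pass. HIF1A, the oxygen-labile alpha subunit of the factor, read 1253.1, 1185.4 and 1401.1 in control arrays and 1492.8, 1495.8 and 1496.8 in BAHD1 siRNA arrays. The BAHD1 siRNA values were nearly equal to each other and above all control values. The log2 difference was 0.23 ± 0.07 (SE, n = 3 per group), with an adjusted p of 0.0895. It passed after quantile normalisation (adjusted p = 0.0486) and without control replicate 3 (adjusted p = 0.0303). With centred medians its difference was 0.09 (adjusted p = 0.682).

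ARNT, the partner of the alpha subunits, lay on the other side of 0. Its brightest probe set read 181.4, 218.5 and 169.5 in control arrays and 154.2, 139.6 and 139.3 in BAHD1 siRNA arrays. The groups did not overlap, and the level was 76.5% of control (log2 difference -0.39 ± 0.12 (SE, n = 3 per group), adjusted p = 0.0774). A second probe set was at -0.46 with no overlap either. Of the 5 kept probe sets of ARNT 4 were lower and 1 was higher, at 0.30. ARNT passed when dimmer probe sets were left out by a stricter filter (adjusted p = 0.0478) and with centred medians (adjusted p = 0.0188). As the mean over its kept probe sets the difference was -0.18 (adjusted p = 0.349).

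The alpha subunit gene EPAS1, which serves in particular tissues, read 153.7, 176.3 and 149.0 in control arrays and 182.2, 171.0 and 191.0 in BAHD1 siRNA arrays, with a log2 difference of 0.19. Its dimmer second probe set was at -0.32. VHL, which recognises hydroxylated alpha subunits for degradation, read 87.6, 119.0 and 100.8 against 104.0, 167.3 and 119.1. Both genes overlapped between groups, and the VHL difference of 0.32 came mainly from the high BAHD1 siRNA replicate 2. EGLN1, EGLN2 and EGLN3 encode the oxygen-sensing hydroxylases. EGLN1 was at 795.9, 850.4 and 1069.4 in control arrays and 981.7, 1033.2 and 1008.1 in BAHD1 siRNA arrays (log2 difference 0.17). Its 3 dimmer probe sets were lower, from -0.29 to -0.05, so its direction was not the same across probe sets. The brightest passed without control replicate 3 (adjusted p = 0.0412). EGLN3, itself a hypoxia target, was dim at 15.7, 17.0 and 16.8 against 26.5, 23.6 and 19.8. All its control values lay under the filter of 17.9 and all its BAHD1 siRNA values above it. With its controls under the filter, this probe set could be kept only without overlap, so the lack of overlap carries no weight. The difference of 0.46 ± 0.33 (SE, n = 3 per group) did not pass (adjusted p = 0.457), and its other probe set was at -0.18. EGLN2 was readable only in 2 probe sets shared with the RAB4B-EGLN2 readthrough gene (and 1 of them also with RAB4B), at -0.04 each.

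The secreted and mitochondrial targets of HIF lay on both sides of 0, and besides ADM none passed. VEGFA, the main growth factor for blood vessels, read 777.0, 759.7 and 764.3 in control arrays and 803.8, 838.2 and 939.4 in BAHD1 siRNA arrays. The groups did not overlap, and all 4 of its probe sets were higher, by 0.10 to 0.32. Its brightest was at 0.16 ± 0.07 (SE, n = 3 per group; adjusted p = 0.221).

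BNIP3 and BNIP3L encode receptors that mark mitochondria for removal by autophagy. BNIP3L read 416.3, 486.2 and 515.8 in control arrays and 549.5, 567.0 and 557.2 in BAHD1 siRNA arrays, with no overlap (log2 difference 0.24, adjusted p = 0.121). BNIP3 was at 0.06 with overlapping groups. Thus neither of this related pair passed.

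P4HA1 and P4HA2 encode catalytic subunits of the collagen prolyl hydroxylase of the endoplasmic reticulum. P4HA1 read 524.2, 612.2 and 579.9 in control arrays and 495.6, 501.1 and 431.7 in BAHD1 siRNA arrays. These groups did not overlap (log2 difference -0.26 ± 0.09 (SE, n = 3 per group), adjusted p = 0.0988), whereas those of P4HA2 did, at -0.05. P4HB, the partner subunit in the same enzyme and no member of the list, fell by 0.29 on the log2 scale (adjusted p = 0.0279, and 0.129 at the highest with 1 array left out).

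STC1 and STC2 encode stanniocalcins, secreted glycoproteins. STC2 read 949.5, 931.1 and 910.7 in control arrays and 845.9, 781.6 and 768.9 in BAHD1 siRNA arrays, without overlap. Its log2 difference was -0.22 ± 0.07 (SE, n = 3 per group; adjusted p = 0.0804), while its dimmer probe set was at 0.09. STC1 was dim and higher in all 3 of its probe sets, by 0.28 to 0.49, with overlap in each. The remaining members of this group were the ankyrin repeat gene ANKRD37 at 0.12, the stress-responsive gene NDRG1 at 0.07 and MXI1, which encodes an antagonist of MYC, at 0.05. All 3 overlapped between groups.

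**Figure D4:**
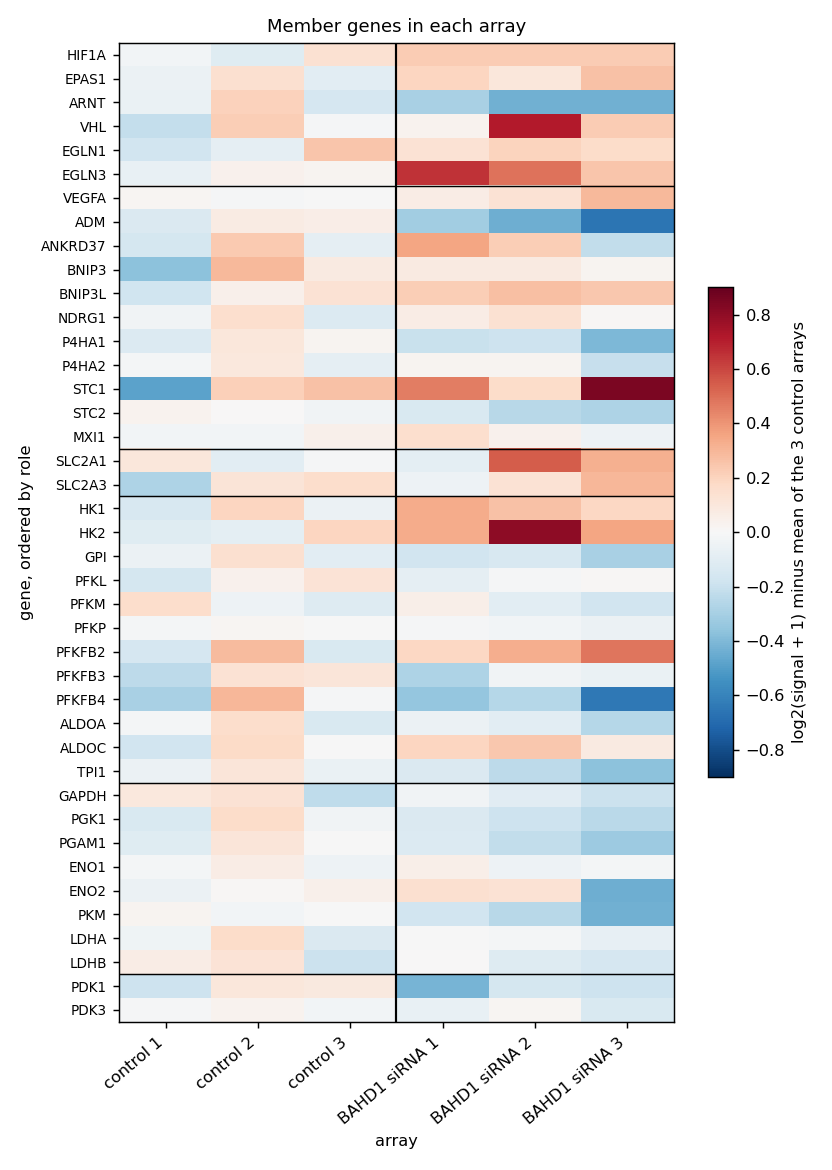
Level of each of 41 member genes (rows, ordered by role with lines between roles) in each of 6 arrays (columns), as log2(signal + 1) minus the mean of the 3 control arrays; red is higher and blue lower. HK2 is red and ADM, ARNT and PKM are blue in all 3 BAHD1 siRNA arrays, and most rows of glycolysis are pale.

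Glucose enters HEK293 cells through facilitative transporters, of which SLC2A1 and SLC2A3 are members. SLC2A1 read 79.8, 69.7 and 74.0 in control arrays and 69.8, 109.1 and 93.1 in BAHD1 siRNA arrays, which overlapped (log2 difference 0.26, adjusted p = 0.404). SLC2A3 was higher in all 3 of its probe sets, by 0.13 to 0.46, although the brightest was at -0.0092 with centred medians. The brightest read 55.1 and 72.8 in control replicates 1 and 2, with replicate 3 a little higher, against 65.0, 73.4 and 82.7, an overlap. Only the probe set at 0.46, with 40.3, 32.7 and 43.4 against 52.3, 49.7 and 58.6, was free of overlap, and none passed. A further 2 probe sets, shared with the near-identical gene SLC2A14, were at 0.67 (adjusted p = 0.0791) and 0.30, and their signal cannot be given to 1 of the genes.

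In the upper part of glycolysis, which spends ATP to make triose phosphates, 4 of 12 genes were higher and 8 lower, and HK2 alone passed. HK1, the housekeeping hexokinase, read 251.8, 318.6 and 269.0 in control arrays and 350.5, 334.4 and 317.4 in BAHD1 siRNA arrays. The groups overlapped narrowly (log2 difference 0.26 ± 0.10 (SE, n = 3 per group), adjusted p = 0.149). Both hexokinase genes were thus higher on average, and HK2 alone passed.

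GPI, which isomerises glucose phosphate, read 1318.0, 1505.9 and 1280.8 in control arrays and 1213.6, 1235.2 and 1112.2 in BAHD1 siRNA arrays. TPI1, which interconverts the triose phosphates, read 2512.8, 2816.6 and 2503.4 against 2380.9, 2209.6 and 2017.4. In both genes all BAHD1 siRNA values lay below control, at 86.9% and 84.3% of its level. The adjusted p values were 0.149 for GPI and 0.0912 for TPI1. The second bright probe set of TPI1 was at -0.19, and its dim one was at 0.19.

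The phosphofructokinase subunit genes PFKL, PFKM and PFKP, which carry the committed step, were at -0.03, -0.07 and -0.03. PFKP ran from 638.4 to 653.7 among the controls and from 622.0 to 640.1 with BAHD1 siRNA, and its dim second probe set was at 0.43. The regulators PFKFB2, PFKFB3 and PFKFB4, which make and remove the activator of phosphofructokinase, differed among themselves. PFKFB2 read 84.7, 115.0 and 85.5 against 107.0, 118.0 and 131.8 (log2 difference 0.33), PFKFB4 was at -0.41, and PFKFB3 at -0.12. All 3 overlapped between groups and none passed. The aldolase gene ALDOA was lower in both bright probe sets, at -0.14 and -0.15, and higher in a dimmer one, at 0.23. The second aldolase gene, ALDOC, was at 0.17.

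In the lower part, which makes ATP and ends in pyruvate and lactate, all 8 genes were lower, or 4 of 8 after quantile normalisation, and PKM alone passed. PGAM1, a phosphoglycerate mutase gene, read 2635.0, 3073.5 and 2837.2 in control arrays and 2611.7, 2441.2 and 2271.7 in BAHD1 siRNA arrays. The groups did not overlap, but the difference of -0.22 ± 0.08 (SE, n = 3 per group) did not pass (adjusted p = 0.119). PGK1, a phosphoglycerate kinase gene, read 3249.5, 3998.1 and 3493.4 against 3255.2, 3129.7 and 3021.9. These groups overlapped, at -0.19 (adjusted p = 0.198), and 5 of its 6 probe sets were lower.

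GAPDH, which oxidises the triose phosphate and often serves as a reference gene, was at 8346.3, 8530.3 and 6658.6 in control arrays and 7637.3, 7270.1 and 6804.4 in BAHD1 siRNA arrays. The lowest value of all was in control replicate 3, so the groups overlapped. Its 3 tested probe sets were at -0.14 to -0.11, and the 3 quality-control probe sets of GAPDH were at 90.2% to 92.4% of control, with overlap in each. The ratio of its 3′ to its 5′ control probe set, a measure of RNA integrity, was 0.926 to 0.955 in control arrays and 0.956 to 0.966 with BAHD1 siRNA. These ratios did not overlap, and their part in the differences was not tested. No GAPDH probe set separated the groups, although all 6 were lower on average. The tested one at -0.14 passed without control replicate 3 (adjusted p = 0.0411).

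The enolase gene ENO1 differed least, at 4648.1, 4926.8 and 4574.2 against 4896.0, 4576.1 and 4655.0, a log2 difference of -0.0021 ± 0.065 (SE, n = 3 per group). The neuronal enolase gene ENO2 was at -0.06, with a low value of 135.1 in BAHD1 siRNA replicate 3. The lactate dehydrogenase genes LDHA and LDHB were at -0.03 and -0.09, with overlapping groups. LDHB read 7331.4, 7638.2 and 6130.1 against 7003.1, 6460.2 and 6306.8.

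The pyruvate dehydrogenase kinase genes PDK1 and PDK3 encode enzymes that inhibit the pyruvate dehydrogenase complex. PDK1 read 441.2, 538.9 and 533.8 in control arrays and 374.9, 450.9 and 442.3 in BAHD1 siRNA arrays. The groups overlapped, and the difference of -0.25 ± 0.10 (SE, n = 3 per group) did not pass (adjusted p = 0.16). PDK3 read 414.7, 427.7 and 410.0 against 399.1, 423.4 and 379.3, a difference of -0.06. Of its 5 probe sets 3 were higher.

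Taking both parts of glycolysis, 16 of 20 genes were lower and 4 higher, at a median of -0.08. Most of these genes were bright: 14 of the 20 lay in the brightest quartile of the probe sets kept by the filter. Of these 14, 13 were lower, at a median of -0.10. In that quartile 57.9% of all 6865 probe sets were lower, at a median of -0.04, while the dimmest quartile had 39.1% lower at a median of 0.11. After quantile normalisation, which removes this dependence on signal, 9 of the 14 were lower at a median of -0.03. All probe sets of the brightest quartile then had a median of -0.007. Of the 20 genes 12 were lower, beside 5892 of all 12529 genes kept. Then 4 of the 8 genes of the lower part were lower, with GAPDH at 0.0041 and LDHB at 0.016. HK2, ADM and PKM differed little from before, at 0.50, -0.48 and -0.26.

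**Figure D5:**
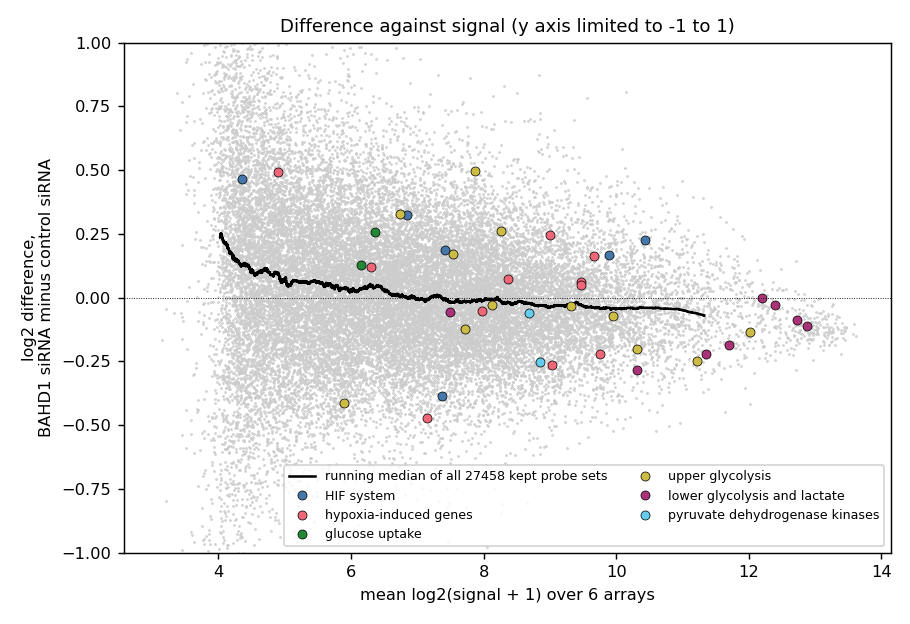
Log2 difference (BAHD1 siRNA minus control siRNA) against mean log2(signal + 1) over 6 arrays, with all 27458 tested probe sets in grey, their running median as a line and the 41 member genes coloured by role. The median is 0.11 in the dimmest quartile and -0.04 in the brightest, which holds 25 of the 41 members.

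Among 24 members with more than 1 kept probe set, 10 had all of them on the same side of 0 and 14 had both signs. HK2, VEGFA, BNIP3, BNIP3L, STC1 and SLC2A3 were higher in every probe set, and PKM, PFKL, GAPDH and LDHB lower in every one.

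Genes that border on these pathways were called about as often as others: 4 of 69 passed (5.8%), against 5.52% of all genes kept. None of 14 other regulators of HIF passed; HIF1AN, the hydroxylase that blocks the coactivator contact of HIF, came closest at -0.33 ± 0.09 (SE, n = 3 per group; adjusted p = 0.0563), and the coactivator gene EP300 was at 0.46. Of 25 further hypoxia-induced genes 3 passed. KDM4B, a histone demethylase gene, rose by 0.73 ± 0.12 (SE, n = 3 per group; adjusted p = 0.0094), although its 4 probe sets ran from -0.10 to 0.73. GBE1, the glycogen branching enzyme gene, and P4HB fell, by 0.42 (adjusted p = 0.0136, and 0.0581 at the highest with 1 array left out) and 0.29 on the log2 scale. Of the 25, 9 were higher and 16 lower, at a median of -0.05.

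None of 11 other glycolysis isozymes and branch-point enzymes and none of 13 genes of pyruvate and lactate handling passed, at medians of 0.06 and 0.05. In the pentose phosphate pathway, the side branch that makes ribose and NADPH, RPIA rose by 0.30 ± 0.07 (SE, n = 3 per group; adjusted p = 0.0367) and the other 5 genes kept did not pass. RPIA reached an adjusted p of 0.136 at the highest with 1 array left out and was at 0.443 with centred medians. By gene, 692 of the 12529 genes kept passed, 384 higher and 308 lower.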

How the data were processed

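Per the labels, total RNA of HEK293 cells was reverse transcribed from oligo(dT) primers and amplified with biotin for Affymetrix arrays. The deposited table holds one linear intensity per probe set and array. Per the submitters' processing notes, GCOS and GCRMA were used; the program that wrote the values is not stated. Each array's mean without its highest and lowest 2% was 100.0.

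Intensities were taken as log2(signal + 1). Of 54675 probe sets, 62 controls were left out, and 27458 were kept; 23546 of these carry 1 gene symbol, 1110 several and 2802 none. No symbol needed an update against RefSeq (0 changed). The fit was limma 3.58.1 in R 4.3.3 (lmFit, and eBayes with trend and robust), all 6 arrays, no covariates, Benjamini-Hochberg adjustment over all kept probe sets. This fit, rather than one with a single prior, was chosen with the counts of both known. The members and lists were chosen with earlier results of these data known. Values are printed for every called member and up to 4 further members of each role with the smallest p; array values of EPAS1, EGLN2, EGLN3, PFKP, ENO1, ENO2 and a second SLC2A3 probe set were added after being looked at. The fit was tested on simulated data. Their noise was drawn from the prior of this same fit, so that test cannot decide between it and the fit with a single prior. The number of arrays limits the precision.

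Alternatives were one prior, a replicate block, no filter, a stricter filter (75th percentile, a signal of 99.9), quantile normalisation, centred medians, log2(signal + 16), array weights, the mean over a gene's probe sets, and leaving out each array.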

Additional observations from a re-analysis of the deposited data

Results flagged for a closer look

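Some control probe sets outside the comparison read higher in the BAHD1 siRNA arrays, and others read lower. Hybridisation controls were lower in 17 of 18 probe sets, at a median of 0.92 times control. The beta-actin and GAPDH controls were lower in all 3 probe sets each, at medians of 0.94 and 0.91 times. Those of 18S ribosomal RNA had both signs. The 24 probe sets of bacterial poly-A RNAs were at a median of 1.49 times control, and the 3 probe sets of 28S ribosomal RNA at 1.73 times. In both families the mean of every BAHD1 siRNA array lay above that of every control array (two-sided exact permutation p of 0.1 for each family, the lowest that 3 against 3 can give). Their part in the differences of HK2, ADM and PKM was not tested. Groups of 3 arrays are too small for a check on single outlying arrays.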

How the results depend on the processing

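The count of calls depended on the processing. With one prior it was 0 higher and 0 lower, over the array and among the members. With no filter it was 178 higher and 220 lower over the array and 0 and 0 among the members. With centred medians it was 192 higher and 1515 lower, and 0 and 9 among the members. With the stricter filter 4 member probe sets were lower, adding STC2 and ARNT, and after quantile normalisation 2 were higher, adding HIF1A. With 1 array left out, the calls ran from 80 to 616 higher and from 97 to 606 lower, and among the members from 0 to 3 higher and from 0 to 2 lower; the fewest over the array came without BAHD1 siRNA replicate 3. The median over member genes was -0.17 with centred medians and ran from -0.048 to 0.0059 with 1 array left out.

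Replicate numbers are shared between groups, but same-numbered arrays did not deviate together (correlations of 0.010, 0.010 and 0.024). With the replicate block, 813 were higher and 816 lower, and HK2, ADM and PKM passed as before (adjusted p = 0.0399, 0.0498 and 0.0299). BAHD1 stayed lower and did not pass under any setting run, from -0.53 with centred medians to -0.30 with 1 array left out (-0.51 to -0.30); the stricter filter removed it.

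Of 343 values of 23 named members under the alternatives, 303 kept direction and side of the threshold, 23 no longer passed, 11 passed newly and 6 changed sign. The sign changed for EGLN1 (-0.061) and PDK3 (0.094) as means over their probe sets, GAPDH (0.0041) and LDHB (0.016) after quantile normalisation, and SLC2A3 with centred medians (-0.0092) and without control replicate 1 (-0.010; range -0.010 to 0.21). The cause of these sign changes was not tested.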
